A study of Mus musculus with 8 samples.

Results

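The prolactin family is a group of hormone genes that the placenta and the decidua, the transformed lining of the uterus, use in pregnancy, and 9 of its genes are described here: *Prl2c5*, *Prl3d1*, *Prl3b1*, *Prl3c1*, *Prl4a1*, *Prl6a1*, *Prl7a1*, *Prl7d1* and *Prl8a2*. They were taken by gene symbol, and the array carried probes for 9 of 9, 13 probes in all, among 20660 named genes and 55681 probes. The samples were 8 wild-type (*Eed* wt/wt) mouse embryos of C57bl6/129 background at E8.5, 4 sired by *Eed* wt/wt males and 4 by *Eed* hypo/wt males, which are heterozygous for l7Rn5-1989SB, a point mutation that lowers the function of EED, a core subunit of the histone methyltransferase complex PRC2. All mothers were wild type, the embryos were matched for stage and size, and each father group held 2 female and 2 male embryos. The comparison asked whether reduced EED in the father altered gene expression in genetically wild-type offspring. Each embryo had its own array, and the values are log2 intensities after each array was shifted so that its 75th percentile lay at 0.

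Mice and rats carry a much larger prolactin family than humans, which arose by gene duplication. Trophoblast giant cells, the large polyploid cells that invade the uterus around the implanted embryo, secrete the placental lactogens and proliferins, which act on the ovary, the mammary gland and blood vessels of the mother. Other members are made by spongiotrophoblast or by decidual cells, and the placental lactogens are known to act through the prolactin receptor. None of these cells belongs to the embryo proper. The labels name the tissue of the samples only as embryo, and which membranes were dissected with it was not given in the sources used here.

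The family lies on chromosome 13, which carries 26 of the 26 family genes in the RefSeq table (GRCm38.p6). In the family's order along the chromosome, *Prl2c5* comes before *Prl*, the pituitary hormone gene, and *Prl3d1*, *Prl3d2*, *Prl3d3*, *Prl3c1*, *Prl3b1*, *Prl3a1*, *Prl6a1* and *Prl8a2* come directly after *Prl*, with *Prl7a1*, *Prl7d1* and *Prl4a1* further along. RefSeq promoter sequences were matched for 8 of the 9 members and for 22 family genes. The stretches below, the 150 bases before the annotated start, are shown because *Prl3d1* and *Prl3d2* shared a pattern over the embryos, because *Prl2c5* and *Prl7d1* were detected differently despite near-identical promoters, and because *Prl7a1* held both motifs searched. Capitals mark a match to TGANTCA, a loose form of the AP-1 site in which N is any base. They also mark AGATAA, a spelling of the GATA factor site, and other spellings were not searched. Both kinds of factor are known from studies of the placental lactogen promoter in trophoblast cells.
*Prl3d1*, chr13:27094039-27094188, plus strand: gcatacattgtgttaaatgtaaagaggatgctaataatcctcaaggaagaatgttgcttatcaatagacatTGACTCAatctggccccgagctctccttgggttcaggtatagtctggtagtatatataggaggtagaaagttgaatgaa
*Prl3d2*, chr13:27121545-27121694, plus strand: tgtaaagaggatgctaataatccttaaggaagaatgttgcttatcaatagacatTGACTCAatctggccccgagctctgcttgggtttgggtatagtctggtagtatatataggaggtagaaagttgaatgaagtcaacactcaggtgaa
*Prl7a1*, chr13:27642494-27642643, minus strand: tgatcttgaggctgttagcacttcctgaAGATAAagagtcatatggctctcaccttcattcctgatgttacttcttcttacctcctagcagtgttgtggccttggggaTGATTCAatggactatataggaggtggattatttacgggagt
*Prl2c5*, chr13:13182566-13182715, plus strand: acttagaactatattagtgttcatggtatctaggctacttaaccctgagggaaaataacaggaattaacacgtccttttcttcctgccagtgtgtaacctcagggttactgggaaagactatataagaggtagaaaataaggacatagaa
*Prl7d1*, chr13:27716738-27716887, minus strand: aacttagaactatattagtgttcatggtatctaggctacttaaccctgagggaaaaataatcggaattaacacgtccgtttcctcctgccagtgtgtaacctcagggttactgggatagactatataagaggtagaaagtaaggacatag

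The motifs were searched on both strands, and the AP-1 letters stood in 5 of the 22 family promoters against 4.2% of 32851 promoters of the same length. They began 79 bases before the start in *Prl3d1*, 96 in *Prl3d2*, 100 in *Prl3d3*, 138 in *Prl3a1* and 42 in *Prl7a1*. *Prl3d1*, *Prl3d2* and *Prl3d3* are copies that share the sequence around the match (*Prl3d2* and *Prl3d3* 94.2% identical). The 5 are therefore not independent matches. The middle base of the *Prl7a1* match is T, a looser match, whereas the others have C or G. The letters AGATAA stood in 2 of the 22, *Prl7a1* (122 bases before the start) and *Prl8a8* (40 bases), against 5.6% of all promoters. The matches in *Prl7a1* did not overlap. The *Prl3d1* and *Prl3d2* stretches hold ttatca, which reads TGATAA on the other strand, another GATA factor spelling that was not searched. The count therefore does not cover every GATA factor site. A match describes the letters and shows no binding. In a global alignment the promoters of *Prl2c5* and *Prl7d1* were 93.4% identical, against a median of 53.9% over 231 pairs of family promoters. Those of *Prl3d1* and *Prl3d2* were 77.2% identical, with their annotated starts offset along a shared sequence.

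The libraries differed in ways that touch these genes. The arrays of each father group shared 1 slide, which makes slide and sire genotype impossible to separate: they cannot be told apart. The number of probes well above background ranged from 32158 to 39530 with *Eed* wt/wt fathers and from 29203 to 38878 with *Eed* hypo/wt fathers. Replicate 3 of *Eed* hypo/wt fathers stood apart, with the median of all probes at -3.13 after the shift, against -4.58 to -3.75 in the other 7 embryos, and the highest negative control spots (median log2 intensity 3.17). Most results that rest on it are given with and without it. Replicate 4 of that group had a local background of 133 intensity units, against 30 to 32 in the other 3. The sample codes of *Eed* wt/wt father replicates 2, 3 and 4 begin alike, and the study's descriptions differ on the number of fathers, so embryos of a group may share a sire, and p-values then measure only the spread between these embryos.

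The members differed in whether they were detected. *Prl2c5*, *Prl3d1*, *Prl3b1*, *Prl7a1* and *Prl8a2* each had a probe well above background in all 8 embryos, *Prl4a1* in 7 and *Prl6a1* in 6. *Prl3c1*, a gene of decidua and testis, had probes above background in 2 embryos and 1 embryo, and *Prl7d1*, proliferin-related protein, a trophoblast hormone that inhibits blood vessel growth, in 1 embryo (*Eed* wt/wt father replicate 3). The last 2 genes, and the second probe of *Prl6a1*, were not tested for this reason, which left 9 member probes of 7 genes. *Prl7d1* was thus near background where *Prl2c5*, with its near-identical promoter, was detected in every embryo. The rule for testing required a signal above background in 4 of 8 embryos.

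**Figure D1:**
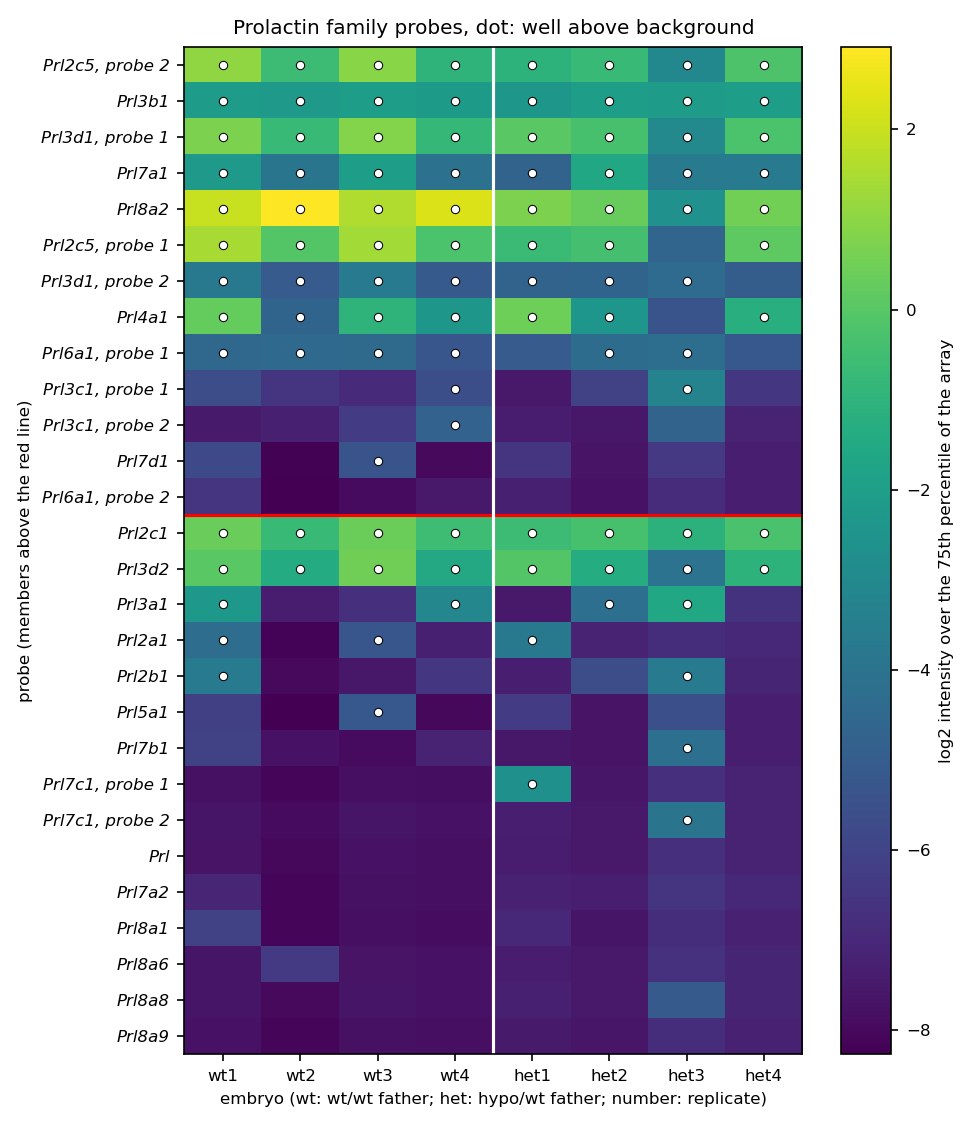
Log2 intensity over the 75th percentile of the array (colour) of every prolactin family probe (rows) in each embryo (columns, father's genotype and replicate number); a dot marks a spot well above background. Rows above the red line are the 9 members, and colours are to be read along a row, since probes differ in how strongly they hybridise. *Prl2c5*, *Prl3b1*, *Prl3d1*, *Prl7a1* and *Prl8a2* have a row with 8 dots, while *Prl7d1* has 1 dot.

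Of the other family genes, 14 of 18 listed were found on the array with 15 probes, and 3 of these genes were tested. *Prl2c1* and *Prl3d2* were above background in all 8 embryos and *Prl3a1* in 4. *Prl3a1* was highest in replicate 3 of *Eed* hypo/wt fathers (-1.59), 5.05 above the median of the other embryos. Its range of 5.93 was equalled or exceeded by 0.369% of all tested probes, and its difference between father groups was -0.08 (SE 1.66). *Prl2a1* was above background in 3 embryos, *Prl2b1* in 2, and *Prl5a1* and *Prl7b1* in 1 each. *Prl2b1* (-3.65) and *Prl7b1* (-4.16) were also highest in replicate 3 of *Eed* hypo/wt fathers. Each of the 2 *Prl7c1* probes was above background in 1 embryo, but not the same one: the first read -2.67 in *Eed* hypo/wt father replicate 1, where the second read -7.32, and the second read -3.98 in replicate 3. *Prl*, *Prl7a2*, *Prl8a1*, *Prl8a6*, *Prl8a8* and *Prl8a9* were above background in 0 of 8 embryos. *Prl3d1* and *Prl3d2*, like *Prl2c5* and its *Prl2c* relatives, are near-identical copies, so their probes may read one another's RNA and a value cannot be assigned to 1 copy with certainty.

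*Prl8a2*, which encodes a prolactin-related protein of the decidua, was lower in every embryo of *Eed* hypo/wt fathers than in any embryo of *Eed* wt/wt fathers. Its log2 level (probe A_55_P2057112) was 1.99, 2.92, 1.56 and 2.31 in replicates 1 to 4 of *Eed* wt/wt fathers and 0.72, 0.30, -2.61 and 0.54 in the *Eed* hypo/wt father group. The groups did not overlap, and replicate 3 of the second group lay far below the other 3. The means were 2.19 ± 0.57 (SD, n = 4) and -0.26 ± 1.58 (SD, n = 4), a difference of -2.45 (SE 0.75), or 5.48-fold lower, with an unadjusted p of 0.0127 and an adjusted p of 1 in limma. Without replicate 3 the mean was 0.52 ± 0.21 (SD, n = 3) and the difference -1.67 (SE 0.31, unadjusted p = 0.00122, adjusted p = 0.378). The gap between the lowest embryo of one group and the highest of the other was 0.84 on the log2 scale and lay between 0.55 and 0.90 over 5 combinations of scaling and source table. In whole-embryo RNA, fewer cells of a type and less RNA per cell cannot be told apart, and this holds for every level given here.

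No member passed the test. Of the 33093 probes tested, limma called 0 (0%) at an adjusted p under 0.01 and at least 2-fold, and 1455 (4.4%) had an unadjusted p under 0.05. Of the 9 member probes, 1 (*Prl8a2*) had an unadjusted p under 0.05, and the same 1 had groups that did not overlap, against 3.22% of all probes in either direction and 1.41% lower with *Eed* hypo/wt fathers. With 9 probes, 1 is the smallest count above 0, so neither share is a result about the members as a group. The difference was below 0 for 8 of the 9 member probes, against 16300 of all 33093 tested. Its median was -0.35 over the members, against 0.003 over all probes tested. At -1 or lower were 3 of the 9, the *Prl8a2* probe and both *Prl2c5* probes, against 0.477% of all probes. Without replicate 3 of *Eed* hypo/wt fathers 1 of the 9, *Prl8a2*, was at -1 or lower, against 2.71% of all probes. Below 0 were 7 of the 9, against 19221 of all 33093 probes. The median of the 9 was then -0.25, against -0.04 over all probes. Without that embryo *Prl8a2* was again the only family probe with an unadjusted p under 0.05, against 9.35% of all probes.

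**Figure D2:**
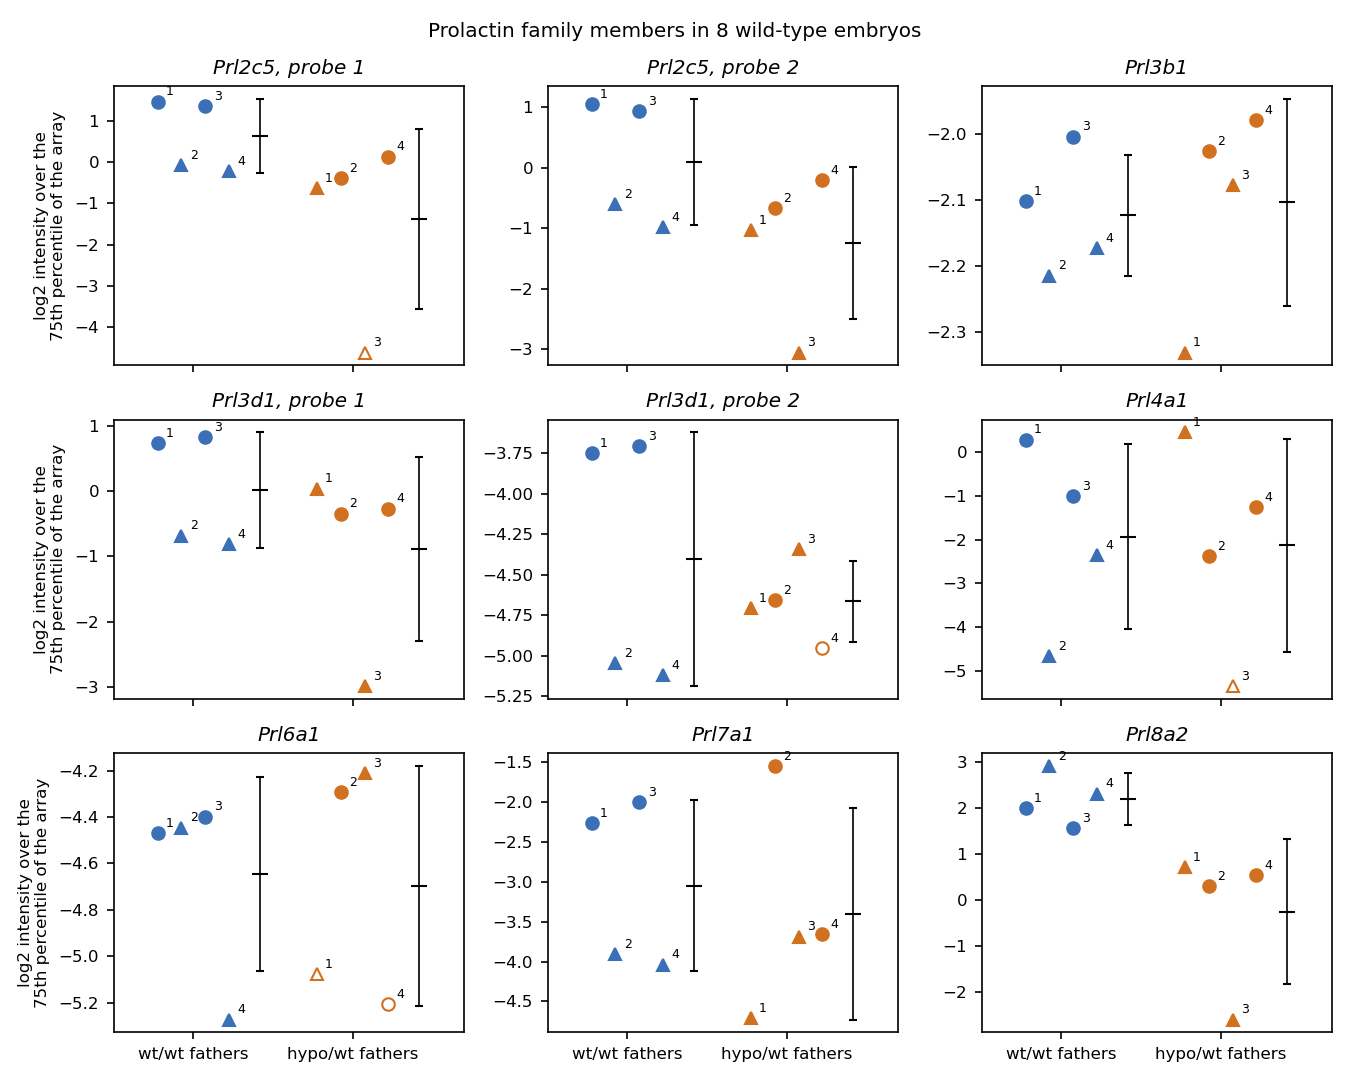
Log2 intensity over the 75th percentile of the array for the 9 tested member probes, by father's genotype (blue, *Eed* wt/wt; orange, *Eed* hypo/wt). Circles are female and triangles male embryos, the digit is the replicate number, open symbols were not well above background, and black bars give the mean and SD of 4 embryos; each panel has its own axis. *Prl8a2* is the only panel in which the groups do not overlap, and replicate 3 of *Eed* hypo/wt fathers is lowest in 5 of the 9.

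Both *Prl2c5* probes and 1 of the 2 *Prl3d1* probes were lowest in the same embryo, replicate 3 of *Eed* hypo/wt fathers. *Prl2c5*, of the proliferin group of giant cell hormones that promote blood vessel growth, read 1.05, -0.60, 0.94 and -0.98 in replicates 1 to 4 of *Eed* wt/wt fathers and -1.03, -0.67, -3.06 and -0.20 in the *Eed* hypo/wt father group by the probe above background in all 8 embryos (A_52_P619248, probe 2 in the plots). Replicates 1 and 3 of *Eed* wt/wt fathers, both female, were the highest, and the groups overlapped. The other *Prl2c5* probe (A_55_P2004752, probe 1 in the plots) read 1.46, -0.08, 1.36 and -0.23 in the first group and -0.64, -0.40, -4.62 and 0.13 in the second, with -4.62 not well above background. The probes followed each other over the 8 embryos (r = 0.965, given as a description), and by the probe above background in all 8 embryos the level of replicate 3 lay 5.47-fold below the median of the other embryos.

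*Prl3d1* is placental lactogen I, the first lactogen of mouse pregnancy, which giant cells secrete and which maintains the corpus luteum. It read 0.73, -0.68, 0.82 and -0.81 in replicates 1 to 4 of *Eed* wt/wt fathers and 0.04, -0.35, -2.99 and -0.27 in the *Eed* hypo/wt father group. The embryos of *Eed* wt/wt fathers fell above and below the other group, replicate 3 of which lay 6.58-fold below the median of the rest. The second *Prl3d1* probe (A_66_P115038) differed from the first (A_55_P1987331). It read -3.75, -5.05, -3.71 and -5.12 in the first group and -4.71, -4.66, -4.34 and -4.95 in the second. It also placed the 2 female embryos of *Eed* wt/wt fathers highest, but replicate 3 of *Eed* hypo/wt fathers came next, and the probes had r = 0.358 over the 8 embryos. The neighbouring copy *Prl3d2* read 0.04, -1.41, 0.50 and -1.52 in the first group and -0.07, -1.33, -4.02 and -1.05 in the second, in the same order as the first *Prl3d1* probe.

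*Prl3b1*, placental lactogen II, which giant cells make later in pregnancy in place of *Prl3d1*, varied little. It lay between -2.33 and -1.98 in all 8 embryos, a 1.28-fold range, with means of -2.12 ± 0.09 and -2.10 ± 0.16 (SD, n = 4 each). Of all tested probes, 77% had a range as large as this or larger. Replicate 3 of *Eed* hypo/wt fathers, at -2.08, was in the middle of this range, unlike in *Prl3d1*. The difference between father groups was 0.02 (SE 0.10).

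*Prl4a1*, a trophoblast hormone that binds uterine natural killer cells, had the widest range among the members after *Prl2c5*. It read 0.29, -4.67, -1.01 and -2.35 in replicates 1 to 4 of *Eed* wt/wt fathers and 0.46, -2.38, -5.35 and -1.25 in the *Eed* hypo/wt father group, where -5.35 was not well above background. High and low embryos occurred in both groups, and the range of 5.81 on the log2 scale was equalled or exceeded by 0.462% of all tested probes. Without replicate 3 the range was 5.13, equalled or exceeded by 0.483%. The means were -1.93 ± 2.12 and -2.13 ± 2.44 (SD, n = 4 each), so the difference of -0.20 (SE 1.45) was far inside the spread, and without replicate 3 it was 0.88 (SE 1.24).

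*Prl7a1*, a hormone of giant cells and spongiotrophoblast, read -2.26, -3.91, -1.995 and -4.04 in replicates 1 to 4 of *Eed* wt/wt fathers and -4.71, -1.54, -3.69 and -3.66 in the *Eed* hypo/wt father group. The highest and the lowest embryo were both sired by *Eed* hypo/wt males. *Prl6a1*, a decidual member, was dim and lay between -5.27 and -4.21, with replicates 1 and 4 of *Eed* hypo/wt fathers not well above background. The differences between father groups were -0.35 (SE 0.77) for *Prl7a1* and -0.05 (SE 0.30) for *Prl6a1*. Of the members not tested, the brighter probe of *Prl3c1* was highest in replicate 3 of *Eed* hypo/wt fathers (-3.29) and lay between -7.52 and -5.58 elsewhere, and *Prl7d1* lay between -8.22 and -5.38.

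The unadjusted p for the father comparison was 0.0978 and 0.108 for the *Prl2c5* probes (differences -2.01, SE 1.06, and -1.34, SE 0.73), and 0.262 for *Prl3d1* (-0.91, SE 0.75). Without replicate 3 of *Eed* hypo/wt fathers these differences were -0.93 (SE 0.50), -0.73 (SE 0.57) and -0.21 (SE 0.46). Each of these differences was thus smaller in size without that embryo. With embryo sex in the fit, 4 of the 12 family probes had an unadjusted p under 0.05 for the father's genotype, against 4.23% of all probes. In limma *Prl8a2* had an unadjusted p of 0.0208 (adjusted p = 1) and *Prl2c5* (A_55_P2004752) 0.0468. This count is given only with replicate 3 of *Eed* hypo/wt fathers, and some of these probes followed one another over the embryos. A p that misses the threshold does not show equal levels.

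Female embryos read higher than male embryos for most of the family, when the father's genotype was kept in the fit. The male minus female difference was below 0 for 9 of 9 member probes and for 11 of 12 family probes tested, with a median of -1.35 over the members against 0.02 over all probes. Without replicate 3 of *Eed* hypo/wt fathers it was below 0 for 8 of 9 member probes, all but *Prl8a2*, against 19410 of all 33093 probes. Its median was then -0.78 over the members against -0.03 over all probes. None was called, while 11 of 33093 probes (0.0332%) were. Several of the probes followed one another over the embryos, so these are not counts of independent readings. With *Eed* hypo/wt fathers a male, replicate 1, was highest for the first *Prl3d1* probe (0.04), *Prl3d2* (-0.07) and *Prl4a1* (0.46). An unadjusted p under 0.05 occurred for 3 of 9 member probes and 4 of 12 family probes, against 3.28% of all probes. *Prl7a1* was 3.29-fold lower in males (-1.72, SE 0.47, unadjusted p = 0.00979), and *Prl2c5* was 3.24-fold lower by the probe above background in all 8 embryos (-1.70, SE 0.42, unadjusted p = 0.00619). The other *Prl2c5* probe, not well above background in 1 male, gave -2.03 (SE 0.82, unadjusted p = 0.0451), and without that male, replicate 3 of *Eed* hypo/wt fathers, the probes gave -1.31 (SE 0.29) and -1.14 (SE 0.26). *Prl2c1* was 1.71-fold lower (-0.77, SE 0.15, unadjusted p = 0.00172), and the adjusted p in limma was 1 for all 4 probes.

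In 2 of these genes the sexes did not overlap, against 2.56% of all probes. *Prl2c1* read 0.36 and 0.42 in the females of *Eed* wt/wt fathers, -0.36 and -0.29 in the females of *Eed* hypo/wt fathers, and between -1.10 and -0.56 in the 4 males. For *Prl7a1* the closest embryos of opposite sex, at -3.66 and -3.69, were almost level. The mean of *Prl2c5* was 0.28 ± 0.85 in females and -1.42 ± 1.11 in males (SD, n = 4 each) by the probe above background in all embryos. *Prl8a2* differed from these genes: among the embryos of *Eed* wt/wt fathers the males were the highest, and the difference over all embryos was -0.27 (SE 0.81), or 0.62 (SE 0.22, unadjusted p = 0.033) without replicate 3 of *Eed* hypo/wt fathers, itself a male. Without that embryo 6 of 12 family probes had an unadjusted p under 0.05 for sex, against 5.05% of all probes, and the adjusted p for *Prl2c5* and *Prl7a1* was 0.929.

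**Figure D3:**
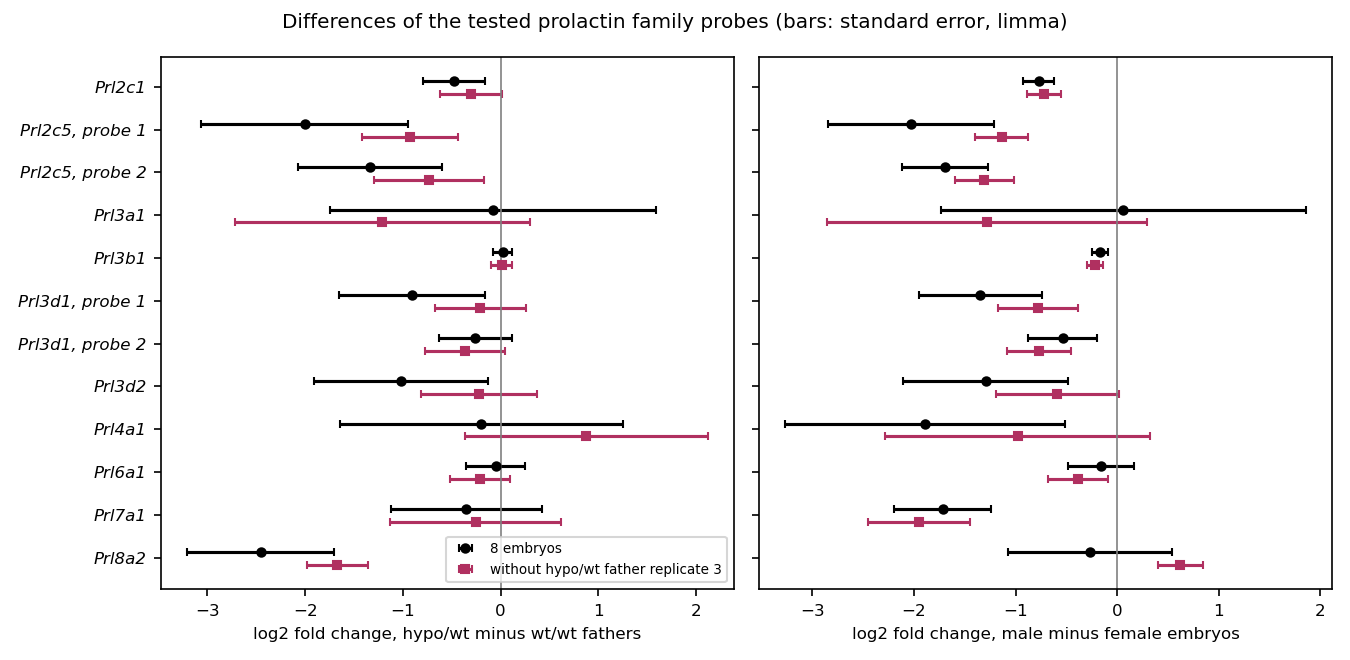
Log2 fold change of the 12 tested family probes between father groups (left) and between sexes with father's genotype in the fit (right), with standard errors from limma. Black points use 8 embryos and red squares leave out replicate 3 of *Eed* hypo/wt fathers. *Prl8a2* stands lowest on the left at -2.45 and -1.67, and most points on the right lie below 0.

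Whether the sex difference itself depended on the father was tested as an interaction. The second *Prl3d1* probe had the only unadjusted p under 0.05 among 12 family probes (interaction 1.63, SE 0.24, unadjusted p = 0.000743, adjusted p = 0.996), against 2.23% of all probes. Its females exceeded its males with *Eed* wt/wt fathers and not with *Eed* hypo/wt fathers. Without replicate 3 of *Eed* hypo/wt fathers, 7 of the 12 had an unadjusted p under 0.05, against 3.15% of all probes, the smallest for the first *Prl3d1* probe (1.87, unadjusted p = 0.000188, adjusted p = 0.207). That group then held 1 male, which was assumed to vary like the other embryos. The females of *Eed* wt/wt fathers were the 2 highest embryos for *Prl2c1*, *Prl2c5*, *Prl3d1* and *Prl3d2*, and the first parts of their sample codes differ.

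Over the 8 embryos the *Prl2c* and *Prl3d* genes followed one another. Among 7 family genes with a probe above background in every embryo, 21 pairs were compared, and 6 had an adjusted p of r under 0.05 by exact permutation over embryos. *Prl3d1* and *Prl3d2* had r = 0.984 (two-sided exact permutation p = 2.48e-05, the smallest that 8 embryos allow, adjusted 0.000521) and rho = 1 (exact permutation p = 4.96e-05, adjusted 0.00104), and r = 0.913 without the 2 embryos farthest from the median of *Prl3d1*. *Prl2c5* and *Prl3d1* had r = 0.945 (exact permutation p = 0.00285, adjusted 0.015) and rho = 0.714 (exact permutation p = 0.0576, adjusted 0.173), and r = 0.790 without the 2 farthest. *Prl2c1* and *Prl2c5* had r = 0.942 (exact permutation p = 0.000967, adjusted 0.0102) and rho = 0.833 (exact permutation p = 0.0154, adjusted 0.114), and r = 0.910 without the 2 farthest. The genes of each pair were read on the same arrays, and whether their probes share sequence was not tested.

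*Prl8a2* did not share this order. It had r = 0.690 with *Prl3d1* (exact permutation p = 0.0886, adjusted 0.172) and rho = 0.143 (exact permutation p = 0.752, adjusted 0.790). Without the 2 embryos farthest from the median of *Prl3d1*, one of them replicate 3 of *Eed* hypo/wt fathers, r was -0.224, so the relation rested on those embryos. With *Prl2c5* it had r = 0.704 (exact permutation p = 0.0625, adjusted 0.164) and rho = 0.405 (exact permutation p = 0.327, adjusted 0.504), and r = -0.018 without the 2 farthest.

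**Figure D4:**
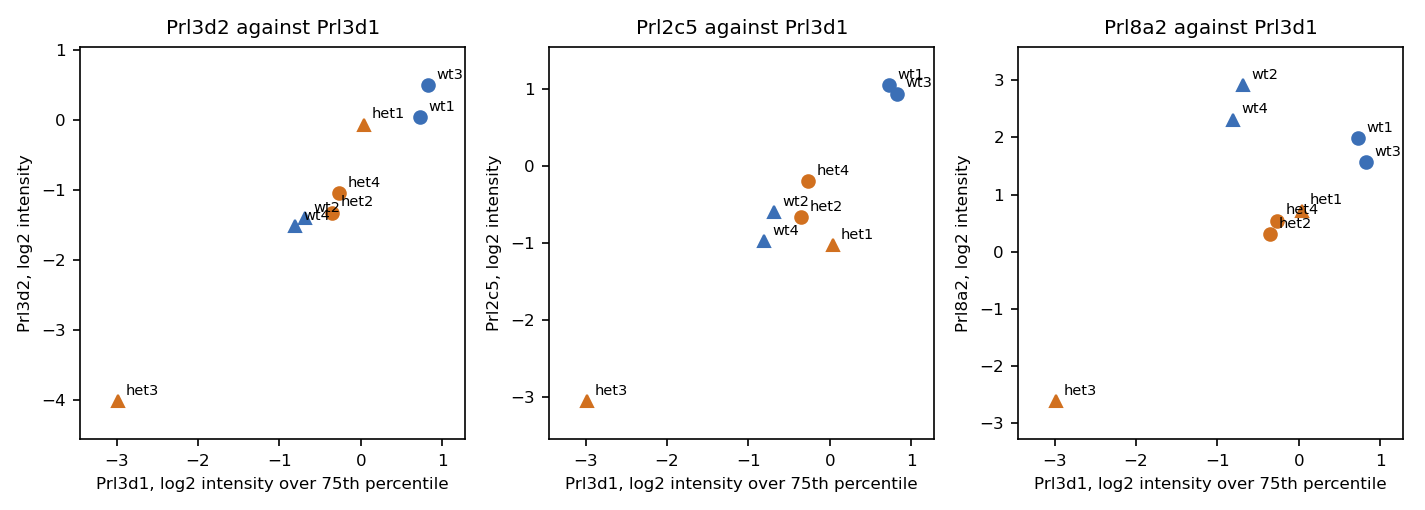
Log2 intensity over the 75th percentile of the array of *Prl3d2*, *Prl2c5* and *Prl8a2* against that of *Prl3d1*, 1 point per embryo (blue, *Eed* wt/wt fathers; orange, *Eed* hypo/wt fathers; circles female, triangles male). *Prl3d2* lies along a line with *Prl3d1* (r = 0.984), whereas in the *Prl8a2* panel the embryos of *Eed* wt/wt fathers lie above the others and the embryo at the lower left is replicate 3 of *Eed* hypo/wt fathers.

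The receptor side of the pathway was present in every embryo. The 12 listed genes carry the prolactin signal from the receptor through JAK2 and STAT proteins or inhibit it. Of these, 12 were above background in all 8 embryos and 0 were called. *Prlr*, the receptor, had a mean of 0.28 ± 0.26 with *Eed* wt/wt fathers and 0.18 ± 0.05 with *Eed* hypo/wt fathers (SD, n = 4 each), a difference of -0.10 (SE 0.13), by its brighter probe. The dimmer *Prlr* probe had means of -2.81 and -3.05, a difference of -0.25 (SE 0.22). It was lowest in replicate 3 of *Eed* hypo/wt fathers (-3.60), and the probes had r = 0.470 over the 8 embryos. *Jak2*, the kinase bound to the receptor, lay between 1.63 and 1.81 in the first group and between 1.82 and 1.91 in the second. It was the only 1 of the 12 without overlap, against 3.22% of all probes, and the gap was narrow. The *Jak2* difference was 0.12 (SE 0.06, unadjusted p = 0.0972 in limma). The other genes among the 4 widest ranges of the list, besides *Prlr* (0.59), were *Shc1* (1.26, with replicate 3 of *Eed* hypo/wt fathers lowest at 1.84), *Stat3* (0.75) and *Cish* (0.52), a feedback inhibitor.

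Genes of the tissues that make these hormones were read as lists, and single genes within them went different ways. The lists also hold genes of other cells, such as *Gcm1*, *Eomes* and *Hoxa11*, and so do not mark the hormone-making cells alone. Of 37 trophoblast and placenta genes, 18 were above background in all 8 embryos and 24 were tested, but *Tpbpa*, the defining marker of spongiotrophoblast, and *Cts8*, *Ctsq*, *Psg25* and *Serpinb9d* were above background in 0 embryos. The 24 had 0 called and a median difference of -0.05 between father groups, and 2 had an unadjusted p under 0.05, both lower: *Serpinb9e* (-1.02, SE 0.34, unadjusted p = 0.0192) and *Serpinb9g* (-1.23, SE 0.39, unadjusted p = 0.0155), serpins of the placenta above background in 6 and 5 embryos, with an adjusted p of 1 in limma. The share of probes lower at this p over the whole array was 2.28%. Both were highest in the 2 females of *Eed* wt/wt fathers, as were several members. *Serpinb9g* was lowest in replicate 3 of *Eed* hypo/wt fathers (-6.83, not well above background). Its mean was -4.82 with *Eed* wt/wt fathers and -6.05 with *Eed* hypo/wt fathers, or -5.79 without replicate 3. Other tested genes of the list went the other way in replicate 3. *Synb* was highest there (-3.56), and *Syna* (-3.39) and *Cts7* (-2.965) lay 2.46 and 2.24 above the median of the other embryos. These 3 genes were above background in 7, 4 and 6 embryos. Among the 18 genes above background in every embryo, the widest ranges were those of *Gcm1* (1.94), which drives labyrinth formation, *Rhox9* (1.45), *Eomes* (1.24), a trophoblast stem cell factor, and *Rhox6* (1.21).

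Of 25 genes of decidua and uterine natural killer cells, 15 were above background in all 8 embryos and 19 were tested, with 0 called and a median of -0.05, and *Gzmd* was above background in 0. Of the 19, 1 had an unadjusted p under 0.05, *Cyp11a1*, the first enzyme of steroid synthesis (-1.71, SE 0.65, unadjusted p = 0.0322, adjusted p = 1 in limma). It was highest in the same 2 females (-2.93 and -2.90) and lowest in replicate 3 of *Eed* hypo/wt fathers (-6.78, not well above background). Its mean was -3.38 with *Eed* wt/wt fathers and -5.09 with *Eed* hypo/wt fathers, or -4.53 without replicate 3. Other genes of this list were highest in replicate 3 of *Eed* hypo/wt fathers, among them *Gzmc* (-2.79) and *Hoxa10* (-1.93). The mean deviation of the 19 lay between 0.02 and 0.20 with *Eed* wt/wt fathers and between -0.33 and 0.14 with *Eed* hypo/wt fathers, and its part in the lower *Prl8a2* of that group was not tested. Among the 15 above background in every embryo, *Hoxa11* (2.12), *Gzmc* (2.09), *Hoxa10* (1.52) and *Lcn2* (1.35) had the widest ranges. *Hoxa11*, a homeobox gene of uterine stroma that embryos also use, was lowest in the 2 females of *Eed* wt/wt fathers (-2.18 and -2.61), against -1.18 to -0.48 in the other 6.

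All 12 parietal endoderm genes and all 20 yolk sac endoderm genes were above background in every embryo, and 15 of 16 embryo proper genes were, with 0 called in each list. Among genes above background in every embryo, the widest ranges in parietal endoderm, the layer that lies against the giant cells, were those of *Fst* (1.30), *Srgn* (1.05), *Thbd* (0.47) and *Col4a2* (0.45). In yolk sac endoderm they were those of *Apoa4* (1.39), *Spp2* (1.37), *Fgg* (1.08) and *Apob* (0.99), and among those of the embryo proper were *Meox1* (1.11), *Sox10* (0.76) and *Six3* (0.71).

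Embryo by embryo, the mean deviation of the 5 members above background in every embryo was -1.81 in replicate 3 of *Eed* hypo/wt fathers and 0.96 and 0.94 in the females of *Eed* wt/wt fathers. In replicate 3 the corresponding value was 0.13 for the trophoblast list, 0.05 for decidua, -0.04 for parietal endoderm, -0.12 for yolk sac endoderm and 0.07 for the embryo proper. Over all embryos the means of these 5 lists stayed between -0.35 and 0.21. The trophoblast list was lowest in replicate 2 of *Eed* hypo/wt fathers (-0.27), where the members stood at 0.22. Not all 5 members fell in replicate 3 of that group. Its difference from the median of the other embryos was -2.45 for *Prl2c5*, -2.72 for *Prl3d1* and -4.17 for *Prl8a2*. For *Prl3b1* it was 0.02 and for *Prl7a1* -0.03. The part of dissected tissue in the members' levels was not tested.

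**Figure D5:**
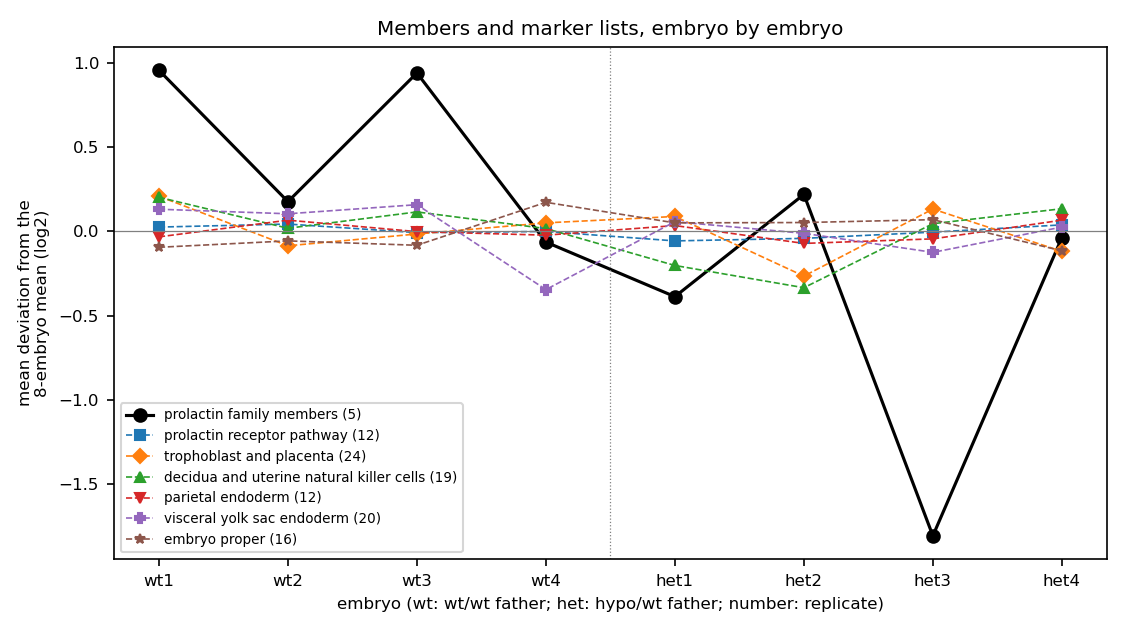
Mean deviation from the 8-embryo mean (log2) for 5 prolactin family members and 6 gene lists in each embryo, with the number of genes in brackets. The mean of the members falls to -1.81 in replicate 3 of *Eed* hypo/wt fathers, where the lists lie between -0.12 and 0.13. *Prl2c5*, *Prl3d1* and *Prl8a2* carry this fall, and *Prl3b1* and *Prl7a1* do not share it.

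Outside the family, the genes whose levels were most like the mean deviation of the 5 members, among 14044 genes over 8 embryos, were *Olfr212* (r = 0.983), *Oscar*, *Zfp967*, *Mipol1*, *Cebpg*, *Mis12*, *Nectin3*, *Tmem102*, *Olfr1008* and *Zfp345* (r = 0.918), all given as a description. None of them stood in the lists above, and their ranges, from 0.19 to 0.84 on the log2 scale, were small beside those of the members. Without replicate 3 of *Eed* hypo/wt fathers the 10 most alike were *Tgfa*, *Rnd1*, *Gkn3*, *Insr*, *Olfr212*, *Aanat*, *Nhlh1*, *Sema6c*, *Vmn2r3* and *Oscar*, of which 2 were shared with the first 10.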

How the data were processed

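Gene expression was measured in 8 embryos with 1-colour Agilent 8x60K arrays. The authors scanned and extracted the spots with Agilent Feature Extraction (version 11.0.1.1 in the submitters' processing notes), and deposited intensity values with background and spatial trend removed, unscaled between arrays. A deposited flag (other) marks spots well above background. The arrays' number limits precision.

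Log2 intensities were shifted by each array's 75th percentile. Control spots and spots marked as outliers were dropped, and replicate spots averaged. Testing in limma 3.58.1 (R 4.3.3, data.table, version 1.17.8) required a mean above the lowest 20% and at least 4 arrays well above background, with Benjamini-Hochberg adjustment over 33093 probes and calls at an adjusted p under 0.01 and 2-fold. RefSeq accessions gave symbols for 27235 of 28685 probes (GRCm38.p6, names and promoters only; the array's probe intervals are on another build). Promoters and figures used Python 3.11.15, Biopython 1.88, numpy 2.4.6, pandas 2.3.3 and matplotlib 3.10.9. The test was checked on simulated data.

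Members and gene lists were chosen with earlier results of these data known. The text names every family gene on the array, the receptor and any called or non-overlapping pathway gene. It also names the 4 widest ranges of each list among probes above background on all 8 arrays, and the 10 genes most like the members. Of these, 1 gene was left out of the text. *Serpinb9e*, *Serpinb9g*, *Cyp11a1*, *Synb*, *Syna* and *Cts7* were added after their values were seen. The brightest tested probe stood for a gene in lists. Also tried were normexp (offset 50, on median spot signals, because the files used hold no mean), quantile normalization, a median shift, the series-wide deposited table, other filters, sex, replicate number or embryo code in the fit, array weights, probes averaged per gene, and each embryo left out.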

Additional observations from a re-analysis of the deposited data

Results flagged for a closer look

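In groups of 4 embryos, a single embryo was marked where its distance to the nearest other embryo exceeded 0.829 of the range of its group (Dixon's limit). This occurred in 7 of 34 groups examined, where chance gives about 1.7. Replicate 3 of *Eed* hypo/wt fathers was low for *Prl2c5* (0.839 of the range, by the probe above background in 7 embryos), for *Prl3d1* (0.873) and for *Prl8a2* (0.876). The *Prl2c5* value behind this mark, -4.62, was not well above background. The *Prl2c5* probe above background in all 8 embryos read -1.03, -0.67, -3.06 and -0.20 in this group and stayed under the limit. By the second *Prl3d1* probe replicate 3 was the highest of its group (-4.34). Replicate 3 was not marked for *Prl3b1*, *Prl4a1*, *Prl6a1* or *Prl7a1*. Replicate 4 of *Eed* wt/wt fathers was low for *Prl6a1* (0.919), whose values were all near background. The same embryo was low for the mean of the yolk sac endoderm markers (0.893; mean deviation -0.35) and high for the embryo proper markers (0.858; mean deviation 0.17). Replicate 4 of *Eed* hypo/wt fathers was low for the embryo proper markers (0.897; mean deviation -0.12). Their causes were not tested.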

How the results depend on the processing

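The count of prolactin family probes called was 0 in all 19 alternatives for the father comparison, and 0 in 12 each for sex and for the interaction. *Prl8a2* stayed lower with *Eed* hypo/wt fathers in 19 of 19, from -2.78 to -1.67, with unadjusted p from 0.00122 to 0.0359 and adjusted p of 0.287 or more. *Prl2c5* (18 of 18) and *Prl3d1* (19 of 19) also stayed lower, from -2.51 to -0.93 and from -1.22 to -0.21. The other differences, all within their spread, changed sign. *Prl3b1* was -0.039 with normexp, -0.086 with the median shift, -0.061 with quantile normalization, and -0.022 to 0.096 with an embryo left out. *Prl6a1* was 0.05 with normexp and -0.26 to 0.12 with an embryo left out. With array weights *Prl4a1* was 1.20 and *Prl7a1* 0.21, and with an embryo left out they lay between -1.11 and 0.88 and between -0.97 and 0.087.

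The range over embryos became 0.575 for *Prl6a1* and 1.83 for *Prl7a1* with normexp, 1.36 for *Prl3b1* and 5.04 for *Prl3d1* with the median shift, and 8.04 for *Prl2c5*, 0.496 for *Prl3b1* and 1.92 for *Prl6a1* with quantile normalization. With an embryo left out, chosen after the data were seen, it lay between 2.10 and 6.08 for *Prl2c5*, 1.64 and 3.81 for *Prl3d1* and 2.61 and 5.53 for *Prl8a2*, the lowest without replicate 3 of *Eed* hypo/wt fathers. With the median shift the median difference between father groups over all probes was -0.10. Unadjusted counts for sex ranged from 3 to 7 of 12 with an embryo left out, the highest without replicate 1 of *Eed* hypo/wt fathers (against 4.3% of all probes), and those for the interaction from 1 to 7, the highest without replicate 3 (against 3.15%), with 5 without replicate 1 (against 14.8%). The replicate numbers did not pair the embryos (correlations of same-numbered embryos from -0.59 to -0.05, 0 embryos closest to their own number). The replicate block left 0 family probes called and *Prl8a2* as the 1 with an unadjusted p under 0.05, and 874 of all probes, against 1455. Dim probes near background, *Prl6a1* and the second *Prl3d1* probe among them, are limited by signal.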
